A study of Homo sapiens with 8 samples.

Results

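KAT8 (also named MOF) is the histone acetyltransferase that places the acetyl mark on lysine 16 of histone H4 (H4K16), a mark tied to open chromatin. It works in 2 complexes. In the male-specific lethal (MSL) complex it is held by the scaffold MSL1, together with the ubiquitin ligase MSL2 and the chromodomain protein MSL3. In the non-specific lethal (NSL) complex it acts at the promoters of widely expressed genes, together with the methyl-lysine reader PHF20, the KANSL subunits, MCRS1, WDR5, HCFC1 and the O-GlcNAc transferase OGT. The genes described here are KAT8, MSL1, MSL2, MSL3 and PHF20, chosen by name. All 5 were present among the 779 genes tested, with 10 sgRNAs each, or 50 of the 7775 targeting sgRNAs.

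The data are sgRNA abundances of a pooled knockout screen. The cells were T1-160, which the study derived from the triple-negative breast cancer line SUM159PT by growth in rising doses of Taxol (paclitaxel). The study compared the Taxol with the DMSO group to find chromatin regulators whose loss reverts resistance. All cells of all groups carried Cas9 and the EPIKOL lentiviral library of sgRNAs against chromatin regulators, and had passed puromycin selection in the presence of verapamil. The AP group (n = 2, replicates 1 and 3) was collected right after that selection, and the DMSO group (n = 3) and the 160 nM Taxol group (n = 3) after 16 population doublings in vehicle or drug. T1-160 is a single resistant derivative, and the labels do not say whether replicates came from separate infections. Tests between libraries thus measure only the spread between these samples, which may be technical. The p-values behind the gene calls rest on the ranks of the sgRNAs of a gene. They use that spread only for the ranking and do not measure it.

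The readout is the abundance of each sgRNA in genomic DNA, so a lower value means fewer cells carrying that sgRNA and says nothing of the expression of the gene. Read totals were 2045986 to 11771418 per library, or 260 to 1499 per sgRNA. The 50 sgRNAs of the 5 genes had between 29 and 12634 reads in a library, the lowest being the MSL1 sgRNA epikol_v2_3788 in Taxol 2. Abundance was more concentrated in Taxol, where the top 10 sgRNAs took up 6.23% to 10.6% of a library, against 1.53% to 2.80% in AP and DMSO. Each deposited table was scaled on its own, so levels were compared within a table only, and the DMSO against AP and Taxol against AP comparisons share their AP libraries.

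KAT8 sgRNAs were less abundant after 16 population doublings in DMSO than after puromycin selection. The geometric mean over the 10 KAT8 sgRNAs, as normalized count + 1, was 761 in AP 1 and 559 in AP 3. It was 351, 487 and 447 in DMSO 1, 2 and 3. Every DMSO library lay below both AP libraries, a separation seen for 14.1% of all genes in this direction. The log2 fold change of the gene mean was -0.62 ± 0.27 (between-library SD, n = 3 and 2). The median of all 779 genes was 0.15, which placed KAT8 0.76 below it, with 37 genes lower.

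**Figure D1:**
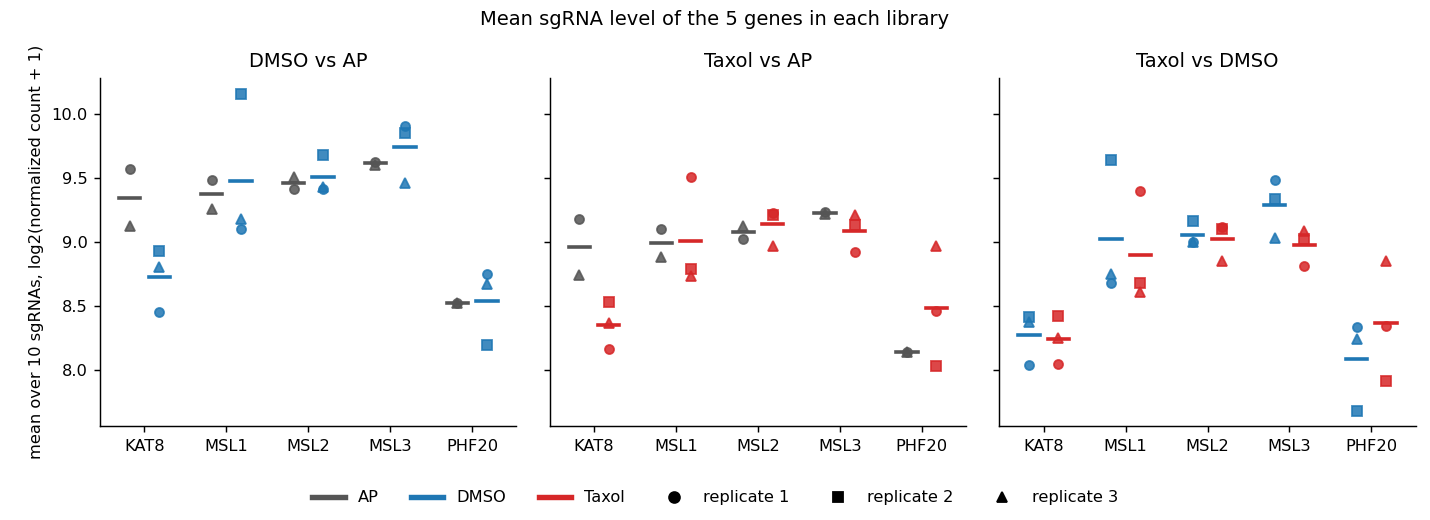
Mean level of the 5 genes, as log2(normalized count + 1) averaged over their 10 sgRNAs, in the tables of DMSO against AP, Taxol against AP and Taxol against DMSO. Each point is a library, with its replicate number as shape, and bars are group means; for KAT8 all DMSO and Taxol points lie below both AP points.

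The KAT8 sgRNAs differed in how far they were lowered. By robust rank aggregation (RRA), which asks whether the sgRNAs of a gene gather at the low end of the ranking of all sgRNAs, the depletion of KAT8 had an unadjusted one-sided p of 0.0331 and an adjusted p of 0.326 over all genes. It passed the unadjusted threshold of the study, as 11.8% of genes did, but was not called after adjustment, as 2.05% were. A limma test of the gene mean itself, in which the libraries are the only replicates, gave an adjusted p of 0.167. Of the 10 sgRNAs, 7 had a log2 fold change below 0 and 4 lay below -0.73, the 5th percentile of the 80 non-targeting sgRNAs. Among all targeting sgRNAs 13.7% lay below it. Without AP 1 the KAT8 value was -0.40 and its unadjusted RRA p 0.101.

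The lowest fold change was that of sgRNA epikol_v2_3127. Its normalized counts were 1060 and 366 in AP 1 and AP 3, and 90.9, 161 and 119 in DMSO 1 to 3, a log2 fold change of -2.36 (limma adjusted p = 0.719 over 7855 sgRNAs). All 3 DMSO values were below both AP values, and the AP values themselves differed widely. For epikol_v2_3124 the counts were 589 and 285 in AP against 115, 170 and 139 in DMSO, a log2 fold change of -1.55 (limma adjusted p = 0.727). For epikol_v2_3129 they were 477 and 521 in AP against 228, 226 and 174 in DMSO, a log2 fold change of -1.26 (limma adjusted p = 0.738). Here too the groups did not overlap, and the AP libraries were close to each other. The share of all sgRNAs that separate in this way was not computed, so the separation is no added evidence for these sgRNAs.

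Other KAT8 sgRNAs were not lower in every DMSO library. Values of epikol_v2_3128 were 585 and 806 in AP and 1874, 847 and 926 in DMSO, so that each DMSO library was above both AP libraries (log2 fold change 0.73, limma adjusted p = 0.840). The counts of epikol_v2_3123 were 1403 and 1350 in AP and 548, 4373 and 786 in DMSO. In DMSO 2 this single sgRNA made up 50.5% of all KAT8 counts, while in DMSO 1 and DMSO 3 it was below both AP libraries. No single sgRNA of any gene passed the adjusted threshold in this comparison, against 287 lower and 252 higher at an unadjusted limma p under 0.05.

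In Taxol, KAT8 was called depleted against AP. The geometric mean over its sgRNAs, as normalized count + 1, was 581 and 429 in AP 1 and AP 3, and 286, 370 and 331 in Taxol 1 to 3. Every Taxol library lay below both AP libraries, as for 14.5% of genes in this direction. The log2 fold change was -0.61 ± 0.23 (between-library SD, n = 3 and 2), 0.81 below the gene median of 0.20, with 27 genes lower. The RRA p was 0.000548 and the adjusted p 0.0203, a call that 4.62% of genes received, and 13.1% passed without adjustment.

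The call rested on many sgRNAs with moderate losses. Of the 10 KAT8 sgRNAs, 9 had a log2 fold change below 0, 8 lay in the lowest 25% of ranks, and 8 lay below -0.38, the 5th percentile of the non-targeting sgRNAs, against 23.9% of all targeting sgRNAs. The strongest was again epikol_v2_3127, at 809 and 281 in AP and 120, 212 and 149 in Taxol, a log2 fold change of -1.61 (limma adjusted p = 0.737). The next was epikol_v2_3125, at 778 and 510 in AP and 385, 347 and 319 in Taxol, a log2 fold change of -0.85 (limma adjusted p = 0.739). Both had all 3 Taxol values below both AP values, a separation whose share over all sgRNAs was not computed. The single sgRNA above 0 was epikol_v2_3128, with 446 and 618 in AP and 863, 535 and 633 in Taxol (log2 fold change 0.34).

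**Figure D2:**
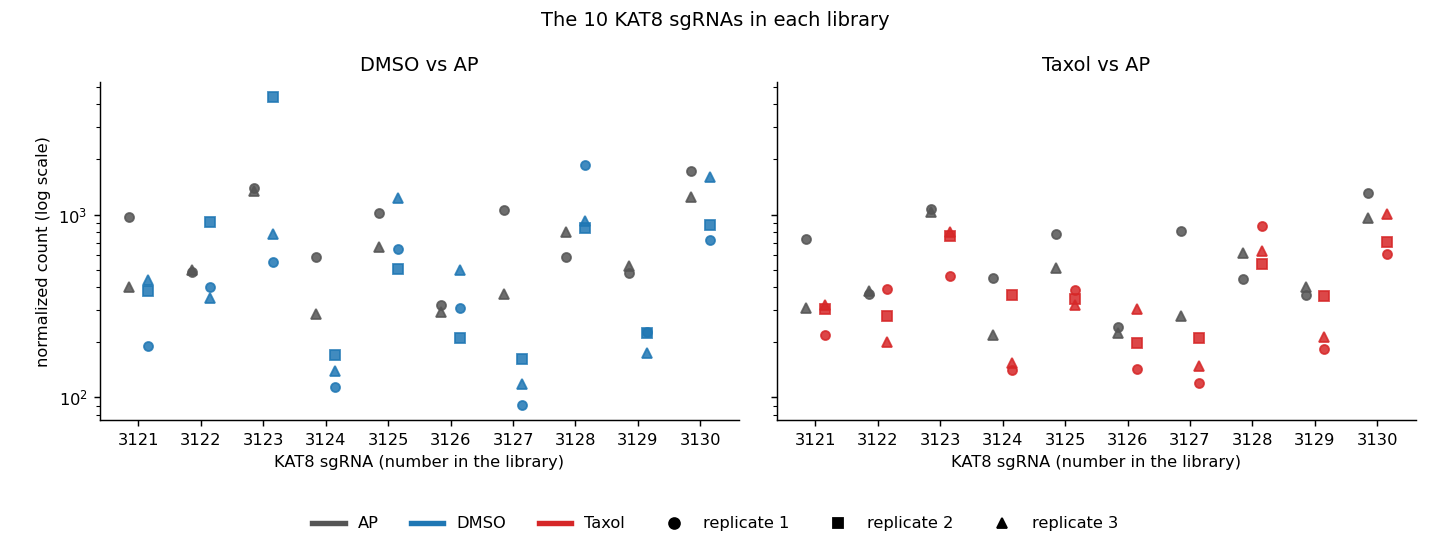
Normalized counts (log axis) of the 10 KAT8 sgRNAs, numbered as in the library, in each library of the DMSO against AP and Taxol against AP tables. Points are libraries; epikol_v2_3127 lies below both AP libraries in every DMSO and Taxol library, epikol_v2_3128 does not, and epikol_v2_3123 stands out in DMSO 2.

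The adjusted call of KAT8 in Taxol was lost when any 1 of the 5 libraries was left out: adjusted p was 0.503 without AP 1 (log2 fold change -0.39), 0.136 without AP 3 (-0.83), 0.163 without Taxol 1 (-0.51), 0.153 without Taxol 2 (-0.70) and 0.0733 without Taxol 3 (-0.62). It was also lost with limma on gene means (adjusted p = 0.153) and with the lowest 10% of ranks (adjusted p = 1). The replicate block on the 4 libraries of replicates 1 and 3 lost it too (log2 fold change -0.70, adjusted p = 0.183). The direction was kept with each library left out and with the block. The limma test of gene means and the rank limit use the main fold change, so the direction could not turn there. The block used the same libraries as the fit without Taxol 2, so these losses are not separate.

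Between the drug and the vehicle, KAT8 did not differ beyond the spread. Its geometric means, as normalized count + 1, were 263, 341 and 333 in DMSO 1 to 3 and 265, 343 and 304 in Taxol 1 to 3. The groups overlapped throughout, and same-numbered libraries were nearly level. The log2 fold change was -0.04 ± 0.20 (between-library SD, n = 3 and 3), with an RRA p for depletion of 0.414 (adjusted 0.969) and a limma adjusted p on gene means of 0.986. The single sgRNAs ranged from -0.73 to 0.84, all 10 of them within the central range of the non-targeting sgRNAs. The largest positive value was that of epikol_v2_3124, at 85.6, 119 and 104 in DMSO and 131, 335 and 141 in Taxol (limma adjusted p = 0.967). This comparison shares its libraries with the other tables, so it is no independent check of them.

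**Figure D3:**
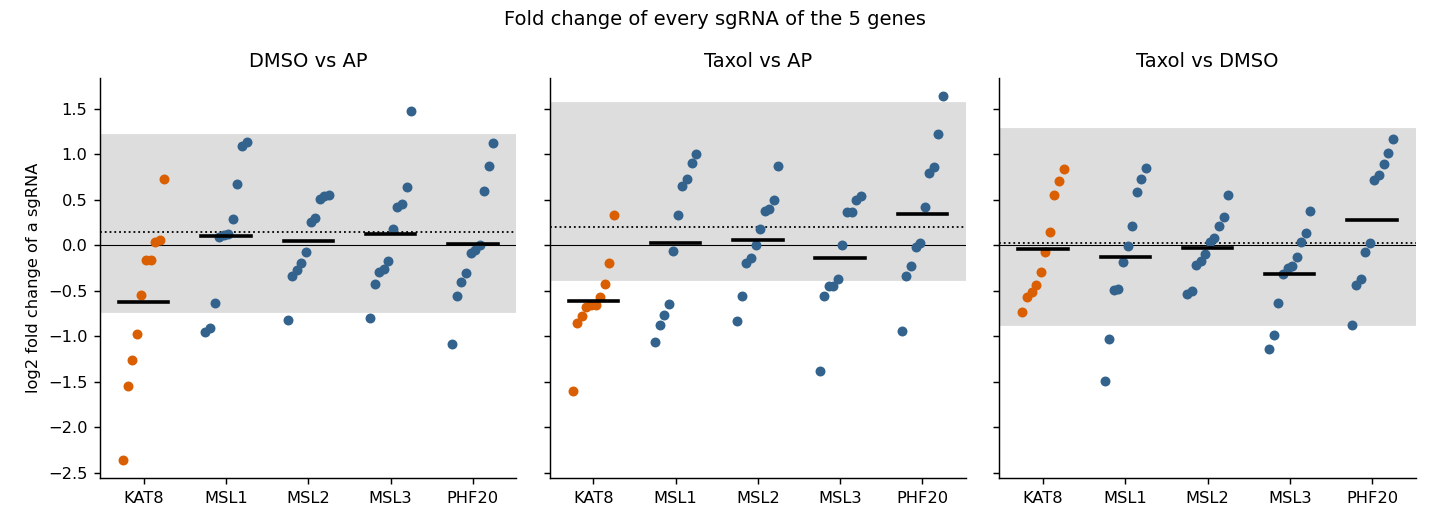
Log2 fold changes of single sgRNAs (10 per gene) in the 3 comparisons, ordered by value within a gene, with the gene mean as a bar. The grey band spans the 5th to 95th percentile of the 80 non-targeting sgRNAs and the dotted line is the median of all genes; 4 KAT8 sgRNAs lie below the band in DMSO against AP and 8 in Taxol against AP, none in Taxol against DMSO. MSL1 and MSL3 each have 4 below it in Taxol against AP and 2 in Taxol against DMSO. Over the 5 genes 9, 19 and 4 of 50 lie below it in DMSO against AP, Taxol against AP and Taxol against DMSO, beside 13.7%, 23.9% and 8.94% of all targeting sgRNAs.

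The MSL subunits gave no call in any comparison. MSL1, the scaffold that binds KAT8, had geometric means (normalized count + 1, as for all genes below) of 719 and 615 in AP and 551, 1145 and 581 in DMSO. DMSO 2 stood above all other libraries, and DMSO 1 and DMSO 3 below both AP libraries. The log2 fold change was 0.11 ± 0.49 (between-library SD, n = 3 and 2) and became -0.23 without DMSO 2. Against AP, the Taxol libraries were at 730, 443 and 426 with AP at 549 and 472, a log2 fold change of 0.02 ± 0.36 (RRA p for depletion 0.0877, adjusted 0.487).

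In Taxol as well, 1 library stood above the others for MSL1. In Taxol 1 the MSL1 sgRNA epikol_v2_3789 had 9602 normalized counts, against 808 and 736 in Taxol 2 and 3, and made up 41.2% of the MSL1 counts of that library. The sgRNA epikol_v2_3782 had 7960 there, against 469 and 393. Without Taxol 1 the MSL1 value against AP was -0.23, with an unadjusted RRA p of 0.0239 and an adjusted p of 0.259, so that it passed the unadjusted threshold only in that setting. In the opposite direction, epikol_v2_3788 was at 128 and 159 in AP and 57.8, 70.8 and 76.7 in Taxol (log2 fold change -1.06, limma adjusted p = 0.737).

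MSL1 in Taxol against DMSO was at 412, 801 and 432 in DMSO and 676, 411 and 392 in Taxol, a log2 fold change of -0.13 ± 0.49 (adjusted RRA p for depletion 0.969). Each group held 1 high library, and over the libraries left out in turn the value ran from -0.38 without Taxol 1 (unadjusted RRA p 0.0463, adjusted 0.785) to 0.18 without DMSO 2. The lowest MSL1 sgRNA, epikol_v2_3790, was the only one of the 50 with an unadjusted limma p under 0.05 in this comparison. Among all sgRNAs, 1.55% were lower and 2.01% higher at that threshold. The counts of epikol_v2_3790 were 553, 2693 and 1200 in DMSO and 367, 516 and 423 in Taxol, a log2 fold change of -1.49 (limma adjusted p = 0.967).

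MSL2, the ubiquitin ligase of the MSL complex, was close to level in all 3 comparisons. It was at 682 and 729 in AP and 684, 820 and 689 in DMSO, a log2 fold change of 0.05 ± 0.13 (between-library SD, n = 3 and 2). In the Taxol against AP table it was at 521 and 559 in AP and 600, 594 and 503 in Taxol, a log2 fold change of 0.06 ± 0.12. Against DMSO (511, 574 and 513) the Taxol libraries were at 555, 551 and 462, a log2 fold change of -0.03 ± 0.13. All of these groups overlapped, the smallest adjusted RRA p in either direction was 1, and no MSL2 sgRNA had a limma p under 0.05. Among all sgRNAs, 3.65%, 3.90% and 1.55% were lower and 3.21%, 2.24% and 2.01% higher at that limma threshold in the 3 comparisons.

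MSL3, the chromodomain reader, had the lowest Taxol against DMSO value of the 5 genes. It was at 718, 648 and 525 in DMSO and 450, 521 and 544 in Taxol, a log2 fold change of -0.31 ± 0.19 (between-library SD, n = 3 and 3), with 55 genes lower. The groups overlapped, since Taxol 3 lay above DMSO 3. The RRA p for depletion was 0.428 (adjusted 0.969) and the limma adjusted p on gene means 0.872, so the difference did not pass a test.

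Against AP (605 and 598), MSL3 was at 486, 562 and 592 in Taxol. All 3 Taxol libraries were below both AP libraries, Taxol 3 by little, and the log2 fold change was -0.14 ± 0.12 (adjusted RRA p for depletion 1). Without Taxol 1 it was -0.060. A single sgRNA stood out, epikol_v2_3802, at 750 and 598 in AP and 265, 276 and 230 in Taxol (log2 fold change -1.38, limma adjusted p = 0.737). In DMSO against AP, MSL3 was at 792 and 779 in AP and 961, 926 and 706 in DMSO, a log2 fold change of 0.12 ± 0.20, which became 0.041 without DMSO 1, 0.068 without DMSO 2 and 0.26 without DMSO 3. Its highest sgRNA, epikol_v2_3807, was at 652 and 422 in AP and 954, 3960 and 834 in DMSO (log2 fold change 1.48, limma adjusted p = 0.727).

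PHF20, the NSL subunit that reads methylated lysine, gave no call either. It was at 369 in both AP libraries and 432, 294 and 407 in DMSO, a log2 fold change of 0.01 ± 0.24 (between-library SD, n = 3 and 2). The DMSO libraries lay on both sides of AP. In the Taxol against AP table the values were 282 and 283 in AP and 352, 261 and 502 in Taxol, a log2 fold change of 0.34 ± 0.39 (RRA p for enrichment 0.271, adjusted 1). Without Taxol 3 it was 0.10 and without Taxol 2 it was 0.57.

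Taxol 3 was the highest library for PHF20. In it epikol_v2_4520 had 1902 normalized counts, against 164 and 139 in Taxol 1 and 2, and epikol_v2_4519 had 1282, against 107 and 154. The sgRNA epikol_v2_4511 was at 265 and 495 in AP and 880, 647 and 2535 in Taxol (log2 fold change 1.64, limma adjusted p = 0.737), above AP in each Taxol library. Against DMSO (323, 206 and 303) the Taxol libraries were at 326, 242 and 461, a log2 fold change of 0.28 ± 0.41 (RRA p for enrichment 0.132, adjusted 0.919). Within the same-numbered pairs Taxol was higher in 3 of 3, by 0.013, 0.23 and 0.61 on the log2 scale, and with the replicate block the RRA p for enrichment was 0.0737 (adjusted 0.832). The value was 0.046 without Taxol 3 and 0.083 without DMSO 2. It was 0.41 without DMSO 1 (unadjusted RRA p 0.00936, adjusted 0.523) and 0.51 without Taxol 2 (0.04, adjusted 0.680). The median over the 10 sgRNAs in place of the mean, taken within each library, turned the Taxol against DMSO value to -0.054, and the Taxol against AP value to -0.0018.

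Counted over the 5 genes, 1 was called depleted (KAT8, in Taxol against AP) and 0 enriched in any comparison. In DMSO against AP, 1 of 5 was depleted and 0 enriched at the unadjusted threshold, where 11.8% of all genes were depleted and 8.09% enriched. After adjustment 2.05% were depleted and 0.128% enriched. In Taxol against AP, 1 of 5 was depleted with either threshold, beside 13.1% of all genes without and 4.62% with adjustment. The enriched shares were 8.34% and 1.41%, with 0 of 5. In Taxol against DMSO 0 of 5 passed either threshold in either direction. The shares of all genes there were 4.75% depleted and 6.55% enriched without adjustment, and 0.257% and 0.128% with it.

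Groups of libraries separated completely downwards for 1 of 5 genes (KAT8) in DMSO against AP, 2 (KAT8 and MSL3) in Taxol against AP and 0 in Taxol against DMSO, beside 14.1%, 14.5% and 4.49% of all genes. None of the 5 separated upwards, as 29.3%, 32.3% and 6.29% of all genes did in the same 3 comparisons. The median log2 fold change of the 5 genes was 0.05, 0.02 and -0.04, beside 0.15, 0.20 and 0.03 over all genes.

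Large counts in a single library occurred across all genes. Of the 50 sgRNAs, 4 (8%) were in DMSO 2 at least 4 times as high as in both other DMSO libraries of the Taxol against DMSO table, as were 4.12% of all targeting sgRNAs. In Taxol 1 it was 3 (6%) beside 7.02%, and in Taxol 3 it was 3 (6%) beside 3.59%. It was 2 (4%) beside 1.67% in DMSO 1, 0 beside 1.31% in DMSO 3 and 1 (2%) beside 1.43% in Taxol 2. The part of such counts in the gene means was not tested beyond leaving out each library.

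The difference between KAT8 and each other gene was computed within libraries, which removes the scaling. In DMSO against AP the KAT8 log2 fold change was 0.72 ± 0.37 below that of MSL1, 0.67 ± 0.26 below MSL2, 0.74 ± 0.37 below MSL3 and 0.63 ± 0.46 below PHF20 (between-library SD, n = 3 and 2). In Taxol against AP it was lower by 0.63 ± 0.50, 0.67 ± 0.30, 0.47 ± 0.20 and 0.95 ± 0.50. With 10 pairs of genes per comparison and only 10 arrangements of the libraries, the two-sided exact permutation test cannot go below 0.1. That value was reached for KAT8 against MSL2 in both comparisons and against MSL3 in Taxol against AP, and the smallest values adjusted over the 10 pairs were 0.667 and 0.5. The test thus cannot show that KAT8 differs from the MSL subunits or PHF20. The other 4 genes followed in the order PHF20, MSL2, MSL1 and MSL3 in DMSO against AP, from 0.01 to 0.12, with neighbours closer than their spread.

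The other NSL subunits gave mixed values. In DMSO against AP the median over KANSL1, KANSL2, KANSL3, PHF20L1, MCRS1, WDR5, HCFC1 and OGT was -0.15, and 6 of the 8 were below 0, beside 36.7% of all genes. None was called, beside 2.05% of all genes, and 3 of 8 (KANSL3, HCFC1 and OGT) passed the unadjusted threshold for depletion, beside 11.8%. HCFC1, a transcriptional cofactor, was at 339 and 303 in AP and 195, 277 and 169 in DMSO, a log2 fold change of -0.62 ± 0.31 (exact RRA p = 0.0214, adjusted 0.256). KANSL3 was at 415 and 414 in AP and 367, 349 and 306 in DMSO, a log2 fold change of -0.29 ± 0.11 (exact RRA p = 0.023, adjusted 0.271). For both the groups did not overlap, as for 14.1% of all genes. The unadjusted threshold was no longer passed by HCFC1 without DMSO 1 (RRA p 0.0532) or DMSO 3 (0.0698), nor by KANSL3 without AP 1 (0.0591). OGT, the enzyme that adds O-GlcNAc to proteins, was at -0.23 ± 0.23 (exact RRA p = 0.0402, adjusted 0.364), with overlapping groups. Its sgRNAs were split, with 6 lower and 4 higher and an RRA p for enrichment of 0.0809. A limma test of its gene mean gave an unadjusted p of 0.335. OGT was below the unadjusted threshold in 7 of 13 other settings, among them the median over sgRNAs, which cannot change the RRA p. Its value was -0.18 without DMSO 1 (RRA p 0.182), -0.40 without DMSO 2 (0.0744) and -0.13 without DMSO 3 (0.152).

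In Taxol against AP the NSL median was -0.10, with 4 of 8 below 0 beside 32.3% of all genes. Of the 8, 1 was called depleted beside 4.62% of all genes, and 3 passed without adjustment beside 13.1%. KANSL3 was called depleted and was at 317 in both AP libraries and 255, 273 and 249 in Taxol, a log2 fold change of -0.29 ± 0.06 (exact RRA p = 0.00175, adjusted 0.0414). Its loss was small but the libraries of a group lay close together. The call ended when any 1 library was left out (adjusted p 0.199 without AP 1, 0.312 without AP 3, 0.484 without Taxol 1, 0.199 without Taxol 2, 0.335 without Taxol 3), and with limma on gene means (0.333). HCFC1 was at 259 and 232 in AP and 168, 191 and 142 in Taxol, a log2 fold change of -0.56 ± 0.19 (exact RRA p = 0.00493, adjusted 0.0835). It passed the adjusted threshold without Taxol 2 (0.0331). OGT was at 249 and 250 in AP and 232, 216 and 177 in Taxol, a log2 fold change of -0.27 ± 0.17 (exact RRA p = 0.0253, adjusted 0.251), and at -0.15 without Taxol 3 (RRA p 0.0849). All 3 genes had every Taxol library below both AP libraries, as 14.5% of all genes did.

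The remaining NSL subunits did not pass a threshold. In Taxol against AP, KANSL2 was at -0.47 ± 0.36 (RRA p for depletion 0.0522), and KANSL1, MCRS1, WDR5 and PHF20L1, a paralog of PHF20, were between 0.07 and 0.53. HCFC1, WDR5 and OGT also belong to complexes without KAT8, so their sgRNAs do not read the NSL complex alone. In Taxol against DMSO the 8 NSL genes ranged from -0.36 to 0.36 with a median of 0.09, and none passed either threshold. Without adjustment, 4.75% of all genes were depleted and 6.55% enriched there.

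**Figure D4:**
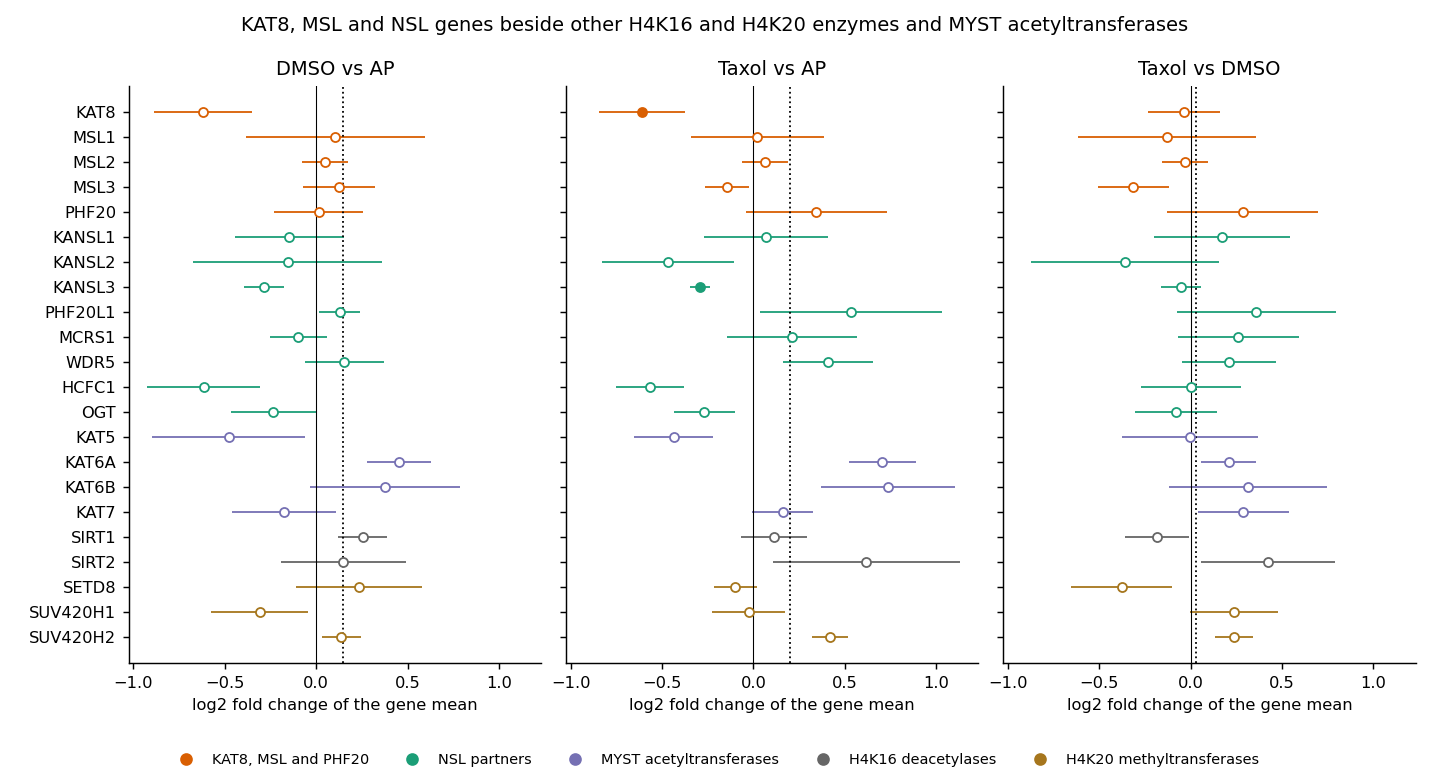
Log2 fold change of the gene mean (points) with its SD between libraries (bars) for KAT8, the MSL genes and PHF20 and for 17 related genes, in the 3 comparisons. Filled points have an adjusted RRA p under 0.05 and the dotted line is the median of all genes; KAT8 and KANSL3 are the filled points, both in Taxol against AP.

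The 4 other MYST acetyltransferases, the family of KAT8, differed among themselves. In Taxol against AP only KAT5 (TIP60), which acetylates histones H4 and H2A, passed the unadjusted threshold for depletion, as 13.1% of all genes did. It was at 190 and 209 in AP and 156, 170 and 121 in Taxol, a log2 fold change of -0.44 ± 0.22 (exact RRA p = 0.00524, adjusted 0.0862). Its value was -0.50 without AP 1 and -0.33 with the low-count filter (RRA p 0.0184, adjusted 0.202). KAT7, KAT6A and KAT6B were at 0.16, 0.71 and 0.74, and the median of the 4 was 0.43. In DMSO against AP the median was 0.10 and in Taxol against DMSO 0.25, and none of the 4 passed a threshold. KAT5 was low in DMSO against AP as well, at -0.48 ± 0.42 (RRA p for depletion 0.0747), where 2 of the 4 were below 0. In Taxol against DMSO it was at -0.0051. Without adjustment, 11.8% and 4.75% of all genes were depleted and 8.09% and 6.55% enriched in these comparisons.

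Enzymes that act on the same or a neighbouring residue gave no calls. The deacetylases SIRT1 and SIRT2, which can remove the acetyl group from H4K16, were between 0.12 and 0.62 in Taxol against AP, between 0.15 and 0.26 in DMSO against AP, and at -0.19 and 0.42 in Taxol against DMSO. The H4K20 methyltransferases SETD8, SUV420H1 and SUV420H2 (now named KMT5A, KMT5B and KMT5C) had medians of -0.02, 0.14 and 0.24 in these comparisons. None of these 5 genes passed the unadjusted threshold. Of all genes, 13.1%, 11.8% and 4.75% passed it for depletion and 8.34%, 8.09% and 6.55% for enrichment, in the same order of comparisons.

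Across the 6 libraries of the Taxol against DMSO table, the genes whose mean followed KAT8 most closely were SETD5 (Pearson's r = 0.98), ATF2 (0.95) and NIPBL (0.93). For MSL1 they were CDY1, PADI3 and TLE4 (all 0.99), and for MSL2 they were TAF12, ABCC1 and OGT (0.96, 0.96 and 0.94). For MSL3 they were SMARCC2, ABCB1 and TYW5 (0.97, 0.95 and 0.92), and for PHF20 they were TWIST1, KMT2E and PHF19 (0.97, 0.95 and 0.95). These are the highest of 778 values each, over points that share libraries and their depth, and are a description only. Among the 5 genes themselves r ran from -0.88 (MSL2 and PHF20) to 0.74 (MSL1 and MSL2), and KAT8 was at 0.02, 0.20, -0.04 and -0.53 with MSL1, MSL2, MSL3 and PHF20.

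The scaling set the zero point of all values. The 80 non-targeting sgRNAs had median log2 fold changes of 0.43, 0.68 and 0.11 in DMSO against AP, Taxol against AP and Taxol against DMSO. Centring each library on them moved the gene median to -0.16, -0.33 and -0.14. KAT8 was then at -0.93, -1.13 and -0.21, and its distance to the gene median stayed at -0.76, -0.81 and -0.07. On that scale MSL1, MSL2, MSL3 and PHF20 were all below 0 in both comparisons against AP, between -0.30 and -0.18 in DMSO and between -0.67 and -0.18 in Taxol.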

How the data were processed

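Per the submitters' processing notes the authors used MAGeCK 0.5.8, and they deposited 1 table of normalized counts per comparison, with the values of a group joined in a cell. The mapping step is not given in the sources used here. The authors' own fold changes, scores and p-values per sgRNA and per gene were not used. Cells of the AP group hold 3 values, but GEO has AP samples numbered 1 and 3 only, which were assumed to be the first and last value. In the other groups the order in a cell was assumed to be the replicate order. The remaining AP value left 2 value columns unused. Reads were recovered as multiples of a fixed step (100% whole within 0.1 read).

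Within each table, log2(normalized count + 1) was fitted without covariates by lmFit and eBayes (with trend) of limma 3.58.1 in R 4.3.3. This scale understates changes of low counts. The moderated statistic gave the sgRNA ranking. Alpha-RRA, written for this work and tested on simulated data, combined the lowest or highest 25% of ranks of each gene with at least 3 sgRNAs into an exact one-sided p under uniform ranks, with Benjamini-Hochberg adjustment over 779 genes per direction. The call threshold was an adjusted p of 0.05, and the study's was an unadjusted p of 0.05. RRA uses the spread between libraries only for the ranking, and sgRNAs of a gene share their cells and libraries. A gene value averages the sgRNAs of the gene, and its SD is the pooled spread of that average between libraries.

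Named genes were the 5 members, genes of 4 lists (NSL partners, MYST acetyltransferases, H4K16 deacetylases, H4K20 methyltransferases) that passed the unadjusted threshold or where a count was 5 or fewer, and the 3 genes most like each member. KANSL2, the ranges of the NSL genes and the difference test between members were added after values were seen. The members and lists were chosen with earlier results of these data known. The labels give replicate numbers but do not say that same-numbered DMSO and Taxol libraries are pairs. Deviations from group means correlated at 0.17, 0.13 and 0.21 for same-numbered libraries and at -0.14 to -0.05 for others. Deviations within a group sum to 0, so the values for other libraries are no separate evidence of pairing. Alternatives were the pseudocount, a low-count filter, the scaling, the replicate block, the aggregation, the rank limit, the test and each library left out.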

Additional observations from a re-analysis of the deposited data

How the results depend on the processing

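Of 200 recomputed values for the 5 genes in 3 comparisons, 163 kept their direction and their side of the adjusted threshold, 29 turned direction, 8 (all KAT8 in Taxol against AP) lost the call, and 0 gained one. The filter, the 10% rank limit and limma on gene means left the log2 fold changes of the 5 genes unchanged. So did the replicate block in Taxol against DMSO. Direction could not turn in these settings, so part of the 163 was fixed in advance. KAT8 in Taxol against AP ran from -1.13 to -0.39, with adjusted p from 0.0173 to 1. Its call held with a pseudocount of 10, the filter and both other scalings. The median over sgRNAs changes only the gene value and not the sgRNA ranks, so the RRA p was fixed in advance there. In the counts of settings it is thus no separate check of a threshold. KAT8 in DMSO against AP ran from -0.93 to -0.40 and passed the unadjusted threshold in 12 of 13 settings, with adjusted p from 0.102 to 0.554. The recomputed values of KANSL3, HCFC1, OGT and KAT5 were added after seeing the data. All kept their direction, which the 10% rank limit and limma on gene means could not change. KANSL3 also lost its call with centring on non-targeting sgRNAs (adjusted p = 0.0515), the replicate block (0.0593) and the 10% rank limit (1), and HCFC1 gained one with the block (0.0437).

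The turned values were those of MSL1, MSL2 and PHF20 in all 3 comparisons, of KAT8 in Taxol against DMSO and of MSL3 in DMSO against AP. Centring on the non-targeting sgRNAs gave -0.20, -0.26, -0.18 and -0.30 for MSL1, MSL2, MSL3 and PHF20 in DMSO against AP, and -0.50, -0.46 and -0.18 for MSL1, MSL2 and PHF20 in Taxol against AP. The replicate block gave -0.23 for MSL1 and -0.038 for MSL2 in DMSO against AP. The median over sgRNAs gave -0.054 for PHF20 in Taxol against DMSO, -0.044 for MSL2 in DMSO against AP, and -0.024, -0.090 and -0.0018 for MSL1, MSL2 and PHF20 in Taxol against AP. Leaving out each library in turn gave -0.16 to 0.058 for KAT8, -0.38 to 0.18 for MSL1 and -0.077 to 0.056 for MSL2 in Taxol against DMSO. It gave -0.23 to 0.29 for MSL1, -0.038 to 0.095 for MSL2 and -0.093 to 0.18 for PHF20 in DMSO against AP, and -0.23 to 0.16 for MSL1 in Taxol against AP. The direction held for PHF20 in Taxol against DMSO (0.046 to 0.51) and Taxol against AP (0.10 to 0.57), and for MSL3 in DMSO against AP (0.041 to 0.26), Taxol against AP (-0.20 to -0.060) and Taxol against DMSO (-0.44 to -0.21). The cause was not tested.

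Genes called depleted in Taxol against DMSO (2) numbered 0 to 1 without 1 library, 1 with the 10% rank limit and 0 with limma on gene means. Enriched ones (1) numbered 1 to 3 without 1 library, 2 with the filter and 4 with non-targeting centring. In DMSO against AP, depleted genes (16) numbered 8 with the 10% rank limit and 10 to 21 without 1 library. Enriched ones (1) numbered 2 with the replicate block, 6 with limma on gene means and 1 to 6 without 1 library. In Taxol against AP, depleted genes (36) numbered 11 with the 10% rank limit, 0 with limma on gene means and 2 to 30 without 1 library, and enriched ones (11) numbered 4 with the replicate block, 1 with limma on gene means and 1 to 8 without 1 library.

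The replicate block, with same-numbered libraries taken as pairs, gave 2 depleted and 1 enriched gene in Taxol against DMSO. It changed no other call of the 5 genes than that of KAT8 in Taxol against AP. Against AP same-numbered libraries correlated at only -0.02 to 0.04 over 2 pairs, and the block left 4 libraries. Those were the libraries of the fits without DMSO 2 or without Taxol 2, with the same log2 fold changes, so these settings overlap in the counts above. Leaving out an AP library leaves 1, assumed to vary like the other group. The lowest depth, in Taxol 2 and Taxol 3, limits values of the rarest sgRNAs.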
